A study of Homo sapiens with 11 samples.

Results

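Untreated human embryonic stem cells of the line H7 were compared between the naive medium 5iLA and the primed condition, with 1 library for each, which are 2 of the 11 libraries of the series. The comparison covered the protein-coding RefSeq entries (identifiers starting with NM_) with a mean of at least 1 RPKM over both libraries. RPKM is the number of reads per kilobase of transcript, scaled to library size. The deposited data list 23287 entries, of which 18763 were NM entries, and 10261 of these passed (54.7%). H7 and H1 are established lines of human embryonic stem cells. The primed group was H7 in primed medium with no treatment, and the naive group was H7 in 5iLA medium with no treatment, so neither carried an shRNA or a virus. No time in culture was stated for either. The other 9 libraries came from cells infected with lentivirus 5 days earlier to express a control, uCCNE1 or pCCNE1 shRNA, in primed H1, 5iLA H7 and t2iGo H1. An RNeasy kit was used for RNA and TruSeq RNA kits for library preparation.

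Naive and primed are the names for an earlier and a later state of pluripotency. Naive cells resemble the epiblast of the embryo before implantation, and primed cells, the usual state of human embryonic stem cells, resemble the epiblast after it. The 5iLA medium holds a cocktail of kinase inhibitors, among them inhibitors of MEK and GSK3, together with the cytokine LIF and activin A. Naive human cells are known for transcription factors such as KLF4 and TFCP2L1, for genes otherwise active in germ cells, and for low DNA methylation. Primed cells are known for ZIC2, OTX2 and surface proteins such as THY1 and CD24.

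With 1 library on each side the differences had no replicate check, and no p-value was computed. Depth, estimated from the RPKM value of a single read, was 13.4 M reads for primed and 25.3 M for 5iLA, within a range of 6.4 to 25.3 M over the 11 libraries. At that depth, 1 read on a 2 kb transcript was worth 0.0373 RPKM in primed and 0.0198 RPKM in 5iLA. The median entry rested on an estimated 200 reads in primed and 461 in 5iLA. Intervals on folds below are exact 95% intervals from these estimated reads and cover counting error only. The names given to these libraries in the labels follow different patterns, and whether they were prepared together was not tested. In bulk RNA, fewer cells of a type and less RNA per cell cannot be told apart.

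The median difference over the 10261 entries, as log2(RPKM + 1) in 5iLA minus primed, was 0.23, with quartiles of -0.16 and 0.59. At a threshold of 1 log2 unit, 1054 entries (10.3%) were higher and 398 (3.88%) were lower in 5iLA, 1452 (14.2%) in all. Of the entries past the threshold 72.6% were higher in 5iLA, but after rescaling by the median ratio the counts were 702 higher and 630 lower (52.7% higher), and after quantile normalization 676 and 667 (50.3%). The rescaled medians were 0.011 and -0.0062, so list medians below are to be read against the shift of 0.23. List counts below are likewise to be read against the shares of all entries, 10.3% higher and 3.88% lower. All 398 lower entries were lower by 1 unit under both rescalings, and 66.6% and 64.1% of the higher ones stayed higher. Median-ratio scaling divided primed by 0.912 and 5iLA by 1.10, so it could lose higher entries but no lower ones. Quantile normalization moved the median by -0.23. The unequal losses therefore do not show that lower calls are firmer. The plot of both libraries' levels shows the entries spread about the diagonal, with Pearson's r of 0.861 and Spearman's rho of 0.831 across genes, which are not independent replicates. Differences of at least 3 log2 units were found for 45 entries on the higher side and 15 on the lower side. Many higher entries were almost silent in primed cells: 309 of the 1054 were under 1 RPKM there, and 160 of the 398 lower entries were under 1 RPKM in 5iLA. The mean of the entry just inside the limit of 1 RPKM, BTN3A1, was 1.00035 RPKM (1.83 in primed and 0.176 in 5iLA). The entry just outside, EPM2A, had 1.01 and 0.991 RPKM.

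**Figure D1:**
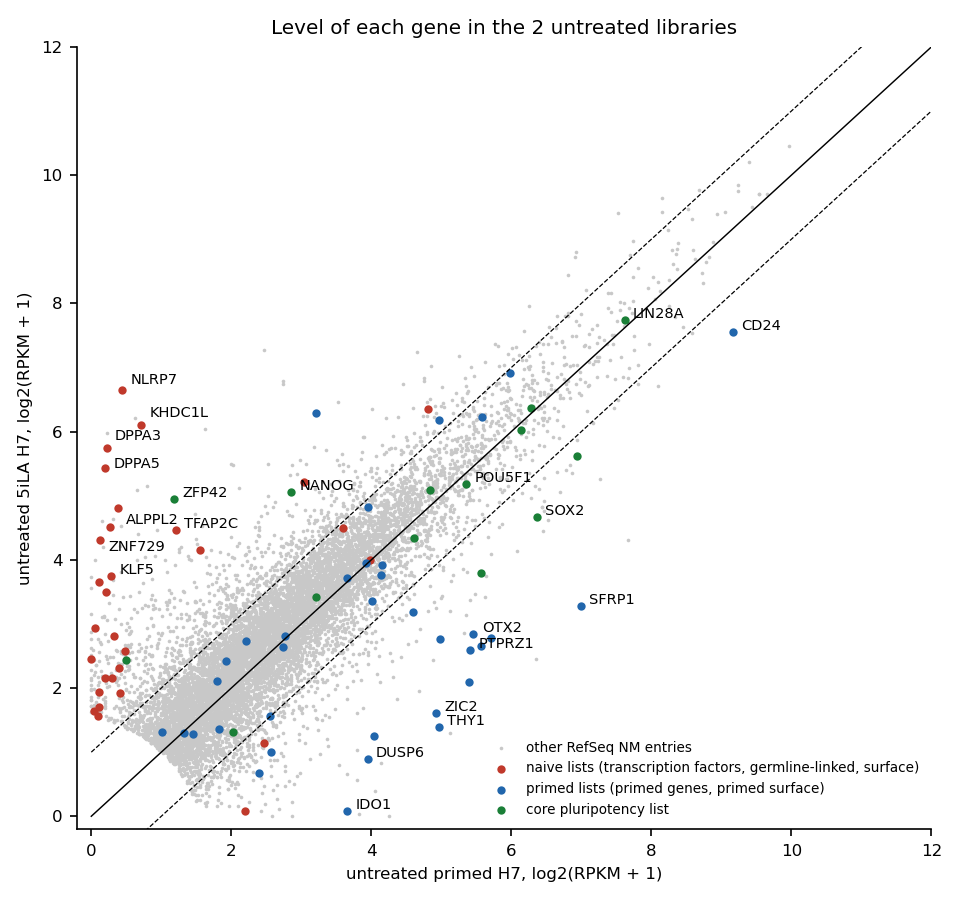
Level of each NM entry that passed, as log2(RPKM + 1), in untreated primed H7 (x axis) and untreated 5iLA H7 (y axis), 1 point per gene and 1 library per axis. The solid line marks equal levels and the dashed lines a difference of 1 log2 unit. Many genes of the naive lists lie along the left edge, with NLRP7 at 0.361 RPKM in primed and 99.4 RPKM in 5iLA, but DAZL and OLFM2 of these lists lie below the diagonal. Many genes of the primed lists, such as SFRP1 (126 and 8.74 RPKM), also lie below the diagonal.

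Some core pluripotency factors were at like levels in both states and others were past the threshold. POU5F1, the OCT4 gene that both states need, was at 39.96 RPKM in primed and 35.3 RPKM in 5iLA. LIN28A, an RNA-binding protein of pluripotent cells, was at 195 and 212 RPKM, and SALL4 at 23.5 and 19.2. Of 17 genes of the list 14 passed, with 3 higher, 3 lower, 8 between and a median of -0.02 (median of all entries 0.23). Over all entries 10.3% were higher and 3.88% lower. The genes past the threshold went both ways. SOX2, the partner of OCT4, was lower in 5iLA, at 81.2 RPKM in primed and 24.3 RPKM in 5iLA, a difference of -1.70 log2 units and a 3.33-fold lower level (interval 3.13 to 3.55). NANOG, a homeodomain factor of the epiblast, was higher in 5iLA, at 6.23 RPKM in primed and 32.4 RPKM in 5iLA (difference 2.21). ZFP42, the REX1 gene used as a naive reporter, went from 1.26 to 29.7 RPKM (difference 3.77). The other members past the threshold were DPPA2, higher at 0.407 and 4.43 RPKM, and TERF1 and L1TD1, lower at 46.2 and 12.9 RPKM and at 122 and 48.2 RPKM.

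Transcription factors of the naive state were higher in 5iLA wherever they were detected well enough to pass. All 8 members that passed were higher, of 17 in the list, but 7 of them were under 1 RPKM in primed, so they passed through the 5iLA library. Their median difference was 2.67, and it was 1.38 over all 17 with no limit on the level. KLF5, a Kruppel-like factor, was at 0.217 RPKM in primed and 12.4 RPKM in 5iLA, a 57.1-fold difference (interval 32.1 to 124). TFAP2C, an AP-2 factor that opens naive enhancers, was at 1.31 and 21.0 RPKM. KLF4, a reprogramming factor, was at 0.401 and 5.00 RPKM. TFCP2L1 and TBX3 reached lower levels, 3.47 and 1.97 RPKM in 5iLA against 0.143 and 0.068 RPKM in primed. The rest of the list was low, with 8 members under 1 RPKM in both libraries. KLF17, a marker of human naive cells, was listed at 0 in primed and at 0.0248 RPKM in 5iLA, an estimated 2.0 reads. ESRRB, which is prominent in mouse naive cells, was at 0.0243 and 0.0904 RPKM.

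Zinc finger genes of a single stretch of chromosome 19 were among the largest differences in 5iLA. ZNF729 was at 0.0942 RPKM in primed and 18.8 RPKM in 5iLA, a difference of 4.17. Its neighbours ZNF208, at 0.0385 and 14.9 RPKM, and ZNF676, at 0.0752 and 11.6 RPKM, were as silent in primed cells. The run of consecutive tested genes higher in 5iLA was ZNF208, ZNF257, ZNF676, ZNF729, ZNF98 and ZNF492, with differences of 1.52 to 4.17. ZNF43, the next gene on the far side of ZNF208 in the RefSeq order, was at 12.1 RPKM in primed and 7.16 in 5iLA. These genes encode KRAB zinc finger proteins, which bind DNA. They are much alike, and reads may be split among copies, so single values are uncertain.

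Genes otherwise linked to germ cells and the early embryo gave several of the largest differences of the comparison. Of 21 genes 12 passed, 11 higher and 1 lower, with a median of 3.08. Of those 12, 11 had 1 library under 1 RPKM, and over all 21 with no limit the median was 1.60. NLRP7, a gene of the oocyte and early embryo, was at 0.361 RPKM in primed and 99.4 RPKM in 5iLA, a difference of 6.21 and a 276-fold higher level (interval 169 to 481). DPPA3, the STELLA gene that protects maternal DNA methylation, was at 0.165 and 52.7 RPKM (difference 5.53). KHDC1L was at 0.640 and 67.7 RPKM (difference 5.39). DPPA5, an RNA-binding protein of pluripotent and germ cells, was at 0.151 and 42.0 RPKM (difference 5.22). These genes went from an estimated 1.4 to 15.9 reads in primed to between 721 and 8300 reads in 5iLA. DNMT3L, the cofactor of the de novo DNA methyltransferases, was at 0.206 and 21.8 RPKM (difference 4.24). The meiotic chromosome genes SYCP3 and HORMAD1 were at 0.153 and 10.3 RPKM and at 0.0409 and 6.63 RPKM. DAZL, an RNA-binding protein of germ cells, went the other way, from 3.58 RPKM in primed to 0.0574 RPKM in 5iLA (difference -2.12).

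The promoters of NLRP7, DPPA3, KHDC1L and DPPA5 are shown because these were the largest differences among the germline-linked genes, and that of ZIC2 as a primed gene for contrast. Each is the 250 bases before the RefSeq start, 5' to 3' on the gene's own strand, from build GRCh38.p14, with every CG dinucleotide, the site of DNA methylation, in capitals. They lie at chr19:54947531-54947780 (minus strand), chr12:7711183-7711432 (plus), chr6:73225497-73225746 (minus), chr6:73354277-73354526 (minus) and chr13:99981534-99981783 (plus), in the order printed.
NLRP7: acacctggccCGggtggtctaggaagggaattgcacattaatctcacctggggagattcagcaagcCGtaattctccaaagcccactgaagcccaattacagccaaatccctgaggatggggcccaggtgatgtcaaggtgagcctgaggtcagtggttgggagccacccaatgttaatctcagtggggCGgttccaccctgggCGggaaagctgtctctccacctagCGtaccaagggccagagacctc
DPPA3: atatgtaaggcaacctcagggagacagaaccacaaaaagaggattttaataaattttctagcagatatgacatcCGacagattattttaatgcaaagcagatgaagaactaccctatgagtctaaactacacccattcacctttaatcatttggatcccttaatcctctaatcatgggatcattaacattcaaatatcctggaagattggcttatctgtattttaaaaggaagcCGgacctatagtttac
KHDC1L: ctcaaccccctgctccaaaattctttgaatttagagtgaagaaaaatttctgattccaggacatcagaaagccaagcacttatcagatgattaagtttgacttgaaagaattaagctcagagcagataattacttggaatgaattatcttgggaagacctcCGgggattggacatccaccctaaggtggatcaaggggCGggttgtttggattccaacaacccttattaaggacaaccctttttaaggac
DPPA5: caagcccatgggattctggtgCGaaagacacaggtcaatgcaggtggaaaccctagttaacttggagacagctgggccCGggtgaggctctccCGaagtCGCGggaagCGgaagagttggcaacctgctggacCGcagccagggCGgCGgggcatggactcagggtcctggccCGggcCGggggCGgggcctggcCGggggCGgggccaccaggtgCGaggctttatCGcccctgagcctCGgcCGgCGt
ZIC2: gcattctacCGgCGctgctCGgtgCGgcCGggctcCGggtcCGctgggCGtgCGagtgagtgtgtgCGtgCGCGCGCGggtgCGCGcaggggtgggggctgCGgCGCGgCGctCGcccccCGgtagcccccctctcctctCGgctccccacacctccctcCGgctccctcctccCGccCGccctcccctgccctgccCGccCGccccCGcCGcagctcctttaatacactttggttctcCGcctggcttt

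The promoters of NLRP7, DPPA3 and KHDC1L hold 5, 2 and 2 CG dinucleotides, and those of DPPA5 and ZIC2 hold 19 and 31. Over the tested entries with a promoter in the RefSeq table (83.0%) the median was 21 CG, and 75.4% had at least 15. Of the 45 entries at least 3 log2 units higher, 36 (80.0%) had a promoter, with a median of 8 CG. In that group 41.7% had fewer than 5 CG, against 5.49% of all tested entries and 35.0% of all promoters in the table. The members of the high group other than those printed include ANXA1 and GDF3, both with 0 CG. GREM1, with 32, shows that the group was mixed. Of the entries at least 2 log2 units lower, 49 of 60 had a promoter, with a median of 15 CG. For the whole classes at least 1 log2 unit higher or lower, the table held promoters for 79.4% and 76.4%, under the 80% set as the least for such a summary, which the group at least 3 units higher only just met. The summary is void for these classes for that reason; over the promoters found there, the medians were 19 and 17 CG, and 12.1% and 5.92% had fewer than 5. The letters GCCNNNGGC, a form bound by AP-2 factors and its own reverse complement, occurred in 27.3% of tested promoters, 19.7% of all promoters and 27.8% of the group at least 3 units higher. The letters CCACNCCC on either strand, a form bound by Kruppel-like factors, occurred in 18.6%, 15.3% and 19.4%. DPPA5 held GCCNNNGGC at 2 positions, and the other printed promoters held neither.

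Surface and secreted markers used to sort naive cells were higher in 5iLA for 7 of the 10 that passed (12 in the list), and OLFM2 was lower, with a median of 1.57 for the 10, of which 5 had 1 library under 1 RPKM. ALPPL2, a placental-type alkaline phosphatase, was at 0.300 RPKM in primed and 27.1 RPKM in 5iLA, a 90.5-fold difference (interval 49.1 to 189). SUSD2, a membrane protein used to sort naive cells, was at 0.253 and 6.01 RPKM. IL6ST, the gp130 receptor chain through which LIF signals, was at 1.93 and 16.8 RPKM. ALPP, which neighbours ALPPL2 and is nearly identical to it, was at 0.0803 and 2.27 RPKM, and its value is uncertain because the copies can share reads. CD7, another naive surface marker, was listed at 0 and 0.166 RPKM, below the limit. OLFM2 was at 4.5 and 1.22 RPKM.

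Many genes of the primed state were lower in 5iLA, and a pair stood against them. Of 30 genes 28 passed, 14 lower and 2 higher, with a median of -1.28. SFRP1, a secreted inhibitor of WNT, was at 126 RPKM in primed and 8.74 RPKM in 5iLA, a 14.4-fold lower level (interval 13.5 to 15.4). THY1, the CD90 surface protein, was at 30.3 and 1.63 RPKM (difference -3.57). ZIC2 was at 29.4 and 2.04 RPKM (difference -3.32). Its neighbour and family member ZIC5 was at 15.4 and 1.39 RPKM. IDO1, the enzyme that starts tryptophan breakdown, was at 11.6 and 0.0626 RPKM. USP44, a deubiquitinase, was at 41.1 and 3.28 RPKM. OTX2, a homeodomain factor of the primed epiblast and of the forebrain, was at 43.0 and 6.16 RPKM (difference -2.62). The members higher in 5iLA were PRTG, an adhesion protein of the immunoglobulin family, at 8.29 and 77.1 RPKM (difference 3.07), and CRABP1, a retinoic acid binding protein, at 30.4 and 71.2 RPKM. The call of CRABP1 was lost under both rescalings (0.95 and 0.91). VIM, the intermediate filament protein vimentin, was at 62.1 RPKM in primed and 120 RPKM in 5iLA (difference 0.94), below the threshold.

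Of the primed surface list, 10 genes passed of 13, with 4 lower, none higher and a median of -0.28. CD24, a heavily glycosylated surface protein, was at 575 RPKM in primed and 186 RPKM in 5iLA, a 3.09-fold lower level (interval 3.02 to 3.16). The class I antigens given here were unequal. HLA-C was at 23.1 and 8.13 RPKM, while HLA-B was at 11.6 and 12.1 RPKM and their partner B2M at 46.7 and 73.8 RPKM. These genes are highly alike and polymorphic, so the authors' counting may have split their reads.

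**Figure D2:**
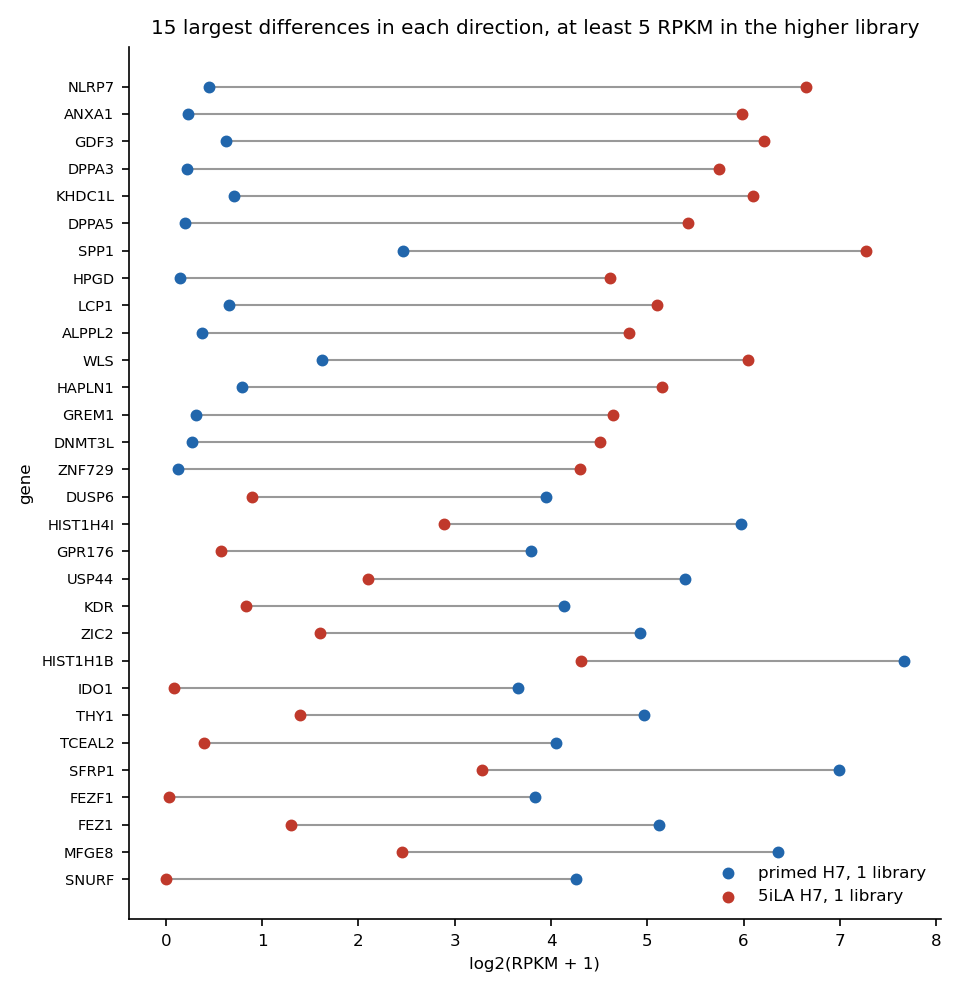
The 15 genes with the largest difference in each direction among entries that reached 5 RPKM or more in 1 of the libraries, as log2(RPKM + 1). Blue points are the primed library and red points the 5iLA library, joined by a line for each gene. The differences run from 6.21 for NLRP7 at the top to -4.26 for SNURF at the bottom, and SPP1 and WLS are the higher genes with the highest primed levels (4.51 and 2.07 RPKM).

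Other genes with the largest differences encode proteins of unlike kinds, some of them matrix, membrane or secreted proteins. ANXA1, a calcium-dependent phospholipid-binding protein, was at 0.172 RPKM in primed and 62.2 RPKM in 5iLA (difference 5.75). SPP1, the secreted phosphoprotein osteopontin, was at 4.51 and 153 RPKM (difference 4.80). WLS, the carrier that takes WNT proteins to the cell surface, was at 2.07 and 65.1 RPKM, and HAPLN1, which links hyaluronan to proteoglycans, at 0.734 and 34.6 RPKM. Both rested on more than 50 estimated reads in primed. HPGD, the enzyme that inactivates prostaglandins, was at 0.109 and 23.4 RPKM, and LCP1, an actin-bundling protein of blood cells, at 0.572 and 33.2 RPKM. On the lower side, MFGE8, a secreted glycoprotein, was at 80.7 RPKM in primed and 4.48 RPKM in 5iLA (difference -3.90). FEZ1, an axon growth protein, was at 33.8 and 1.47 RPKM. FEZF1, a forebrain repressor, was at 13.2 and 0.0206 RPKM, and the VEGF receptor KDR at 16.6 and 0.785 RPKM. TCEAL2 and GPR176 were at 15.6 and 0.317 RPKM and at 12.9 and 0.486 RPKM.

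Chromatin enzymes other than DNMT3L were mostly at like levels. Of 13 DNA methylation genes, which all passed, 4 were higher and none lower, beside 10.3% and 3.88% of all entries. Their median was 0.07, and it was -0.17 after median-ratio scaling. DNMT1, which copies methylation at replication, was at 15 RPKM in primed and 12.2 RPKM in 5iLA. DNMT3B, a de novo methyltransferase, was at 69.5 and 61.4 RPKM, and UHRF1, which guides DNMT1, at 3.50 and 2.69 RPKM. TET2, a methylcytosine oxidase, was at 1.27 and 4.08 RPKM, a call lost under both rescalings. Among 17 Polycomb and bivalent chromatin genes that passed, of 19, KDM6A was the 1 gene past the threshold, at 8.13 and 33.3 RPKM, and the list's median was 0.05 (-0.16 after median-ratio scaling). KDM6A is an X-linked eraser of the Polycomb mark. EZH2, the writer of that mark, was at 10.3 and 12.7 RPKM.

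Signalling genes differed by pathway. Among 18 targets of the MEK and ERK pathway, 15 passed, 4 lower and 3 higher. DUSP6, a phosphatase that acts on ERK and is a common readout of the pathway, was at 14.4 RPKM in primed and 0.863 RPKM in 5iLA (difference -3.05). ETV1, SPRY4 and SPRY1, an ETS factor and a pair of feedback inhibitors, were also lower, at 8.41 and 1.53, 6.83 and 2.3, and 4.43 and 1.32 RPKM. The other direction was taken by CCND1 (8.90 and 23.7 RPKM), FOS and SPRED2, of which FOS and SPRED2 were below the threshold under both rescalings. The median of this list was 0.05, and it was -0.18 after median-ratio scaling. Of 9 FGF ligands and receptors 7 passed and 2 were higher. FGF4, a ligand of the early epiblast, was at 0.0674 and 3.51 RPKM, while FGF2 was at 15.4 and 18.7 RPKM and the receptor FGFR1 at 36.1 and 21.8 RPKM.

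In the WNT pathway genes differed in both directions, also among the secreted inhibitors. Of 20 genes 16 passed, 5 higher and 4 lower, with a median of 0.72. The lower genes were SFRP1, SFRP2 (46.3 RPKM in primed and 5.27 RPKM in 5iLA), TCF7L1, a repressor of WNT targets (4.28 and 0.588 RPKM), and the receptor FZD7 (50.1 and 23.1 RPKM). SFRP1, SFRP2 and TCF7L1 are also in the primed list. The secreted inhibitors DKK1, at 0.599 and 1.80 RPKM (difference 0.81), and DKK3, at 4.5 and 7.41 RPKM (difference 0.61), did not pass the threshold, and NOTUM was at 0.068 and 0.269 RPKM. The higher genes were the target genes AXIN2 (2.36 and 6.95 RPKM), LEF1 (0.419 and 5.23 RPKM), RNF43 (0.158 and 4.66 RPKM) and NKD1, and CTNNB1, which encodes beta-catenin (92.3 and 197 RPKM). The call of CTNNB1 was lost under both rescalings (0.82 and 0.86) and that of NKD1 under quantile normalization (0.94).

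Ligands of the NODAL and BMP pathways were higher in 5iLA. Of 17 NODAL and activin genes 16 passed, 8 higher and 1 lower, with a median of 0.93. NODAL was at 0.582 RPKM in primed and 20.2 RPKM in 5iLA, a 34.7-fold difference (interval 20.1 to 65.2). LEFTY2, its secreted inhibitor, was at 0.333 and 17.6 RPKM (difference 3.80), and GDF3, a related ligand next to DPPA3 on chromosome 12, was at 0.537 and 73.3 RPKM (difference 5.60). Their co-receptor TDGF1 was at 77.1 and 81.4 RPKM, so ligands and co-receptor differed. INHBE, an inhibin subunit, was lower at 5.79 and 1.2 RPKM. Of 13 BMP genes 11 passed, 7 higher and none lower, with a median of 1.07. BMP4 was at 0.366 and 9.68 RPKM, BMP7 at 0.750 and 8.76 RPKM, and the secreted BMP antagonist GREM1 at 0.240 and 23.9 RPKM (difference 4.33). The BMP target ID1 was at 5.92 and 12.1 RPKM (difference 0.92), and ID2 at 15.6 and 13.0 RPKM. In the list of 9 LIF receptor and STAT3 genes, which all passed, 3 were higher: IL6ST, SOCS3 (1.22 and 4.73 RPKM) and PIM1 (3.66 and 14.9 RPKM). The receptor LIFR itself was at 4.09 and 4.18 RPKM.

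Of the 19 cyclins and CDK regulators that passed, 15 differed by less than 1 log2 unit. CCNE1, the gene of cyclin E1 that the series targets in its other libraries, was at 5.65 RPKM in primed and 8.48 RPKM in 5iLA, a difference of 0.51, with an interval of the ratio of 1.24 to 1.81. CCNE2, its paralog, was at 0.846 and 2.24 RPKM (difference 0.81). A gene-level RPKM does not separate the splice forms of CCNE1. Of 22 genes 19 passed, 4 higher and none lower, beside 10.3% and 3.88% of all entries. Their median was 0.54, and 17 of the 19 lay above the median of all entries. The higher genes were CDKN1A, CCND1, CDK6, a partner of D-type cyclins (3.25 and 10.8 RPKM), and CDK2 (4.98 and 12.2 RPKM), the last lost under both rescalings. The mitotic genes CCNB1 and CDK1 were at 34.1 and 50.03 RPKM and at 29 and 36.7 RPKM. CDKN1A, the p21 gene, was at 1.26 and 21.2 RPKM, a 16.8-fold difference (interval 12.1 to 23.9). CDKN1A is also a target of p53, and of 17 genes in the p53 target list 15 passed, 7 higher and none lower, with a median of 0.73. MDM2, the ligase that degrades p53, was at 11 and 44.2 RPKM, GDF15, a stress cytokine, at 0.138 and 7.73 RPKM, and BTG2 at 0.819 and 9.99 RPKM. The apoptosis gene BAX was at 12.1 and 13.7 RPKM and CCNG1 at 177 and 112 RPKM, so the targets were not uniform.

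Stress genes split within their lists. Of 20 ATF4 stress genes 19 passed, 6 higher and 1 lower, with a median of 0.30. The higher ones included DDIT3, the CHOP gene (4.10 RPKM in primed and 18.7 RPKM in 5iLA), TRIB3 (1.22 and 5.20 RPKM) and the amino acid transporter chain SLC3A2 (29.1 and 83.1 RPKM). The serine synthesis gene PHGDH, at 47.7 and 24.1 RPKM (difference -0.95), and the asparagine synthetase ASNS, at 60.4 and 37.5 RPKM (difference -0.68), did not pass the threshold, and PCK2 was lower at 14.5 and 4.21 RPKM. All 14 ER chaperone genes passed, 5 higher and none lower, with a median of 0.79. After median-ratio scaling 2 of them were higher, HERPUD1 (2.71 and 13.4 RPKM) and DNAJC3 (6.19 and 17.9 RPKM).

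Respiratory chain genes and glycolysis genes had unlike medians, and the difference between the lists was not tested. All 38 respiratory genes passed, 15 higher and 1 lower, with a median of 0.73. COX7B, a subunit of cytochrome oxidase, was at 120 RPKM in primed and 423 RPKM in 5iLA, and ATP5G1, of the ATP synthase ring, at 19.8 and 73.6 RPKM. ATP5D was lower at 2.90 and 0.535 RPKM. After median-ratio scaling 12 were higher. Of 22 glycolysis genes 20 passed and 4 were higher, with a median of 0.10 that was -0.15 after median-ratio scaling, where 1 stayed higher. That gene, SLC2A3, a glucose transporter, was at 75.4 and 247 RPKM, whereas GAPDH was at 450 and 420 RPKM and HK2 at 5.34 and 3.66 RPKM. All 24 cholesterol synthesis genes with an entry, of 26, passed, 5 higher and none lower (median 0.53). MSMO1, a sterol oxidase (31.2 and 102 RPKM), was the 1 member higher after median-ratio scaling.

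Imprinted genes past the threshold went both ways. Of 33 genes 21 passed, 4 higher and 2 lower, beside 10.3% and 3.88% of all entries. The list's median of 0.28 was near that of all entries, 0.23. SNURF had the largest lower difference of the comparison, at 18.1 RPKM in primed and 0.0001 RPKM in 5iLA (difference -4.26). SNRPN, which shares its transcript with SNURF, was at 176 and 81.4 RPKM, and because these entries overlap the split of reads between them is uncertain. INPP5F was at 4.76 and 44.0 RPKM (difference 2.97), the retrotransposon-derived PEG10 at 16.7 and 54.1 RPKM, and the growth factor IGF2 at 0.723 and 5.26 RPKM.

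Replication-dependent histone genes were lower in 5iLA. Of 65 genes 62 passed, 27 lower and 3 higher, with a median of -0.77. HIST1H1B, a linker histone, was at 202 RPKM in primed and 18.8 RPKM in 5iLA, a 10.7-fold lower level (interval 9.54 to 12.1). HIST1H4I was at 61.9 and 6.38 RPKM. The higher members were HIST1H1A (1.43 and 7.51 RPKM), HIST1H3C and HIST1H4L, the last lost under both rescalings. Histone genes took 3.61% of the summed RPKM in primed and 1.31% in 5iLA. Most of these messages lack a poly(A) tail and many are near-identical, so their values depend on how RNA was selected and how reads were assigned, and the part of library preparation in this difference was not tested. Ribosomal protein genes, which have many processed copies, were near the median of all entries: 77 of 78 passed, 8 higher and 3 lower, with a median of 0.33.

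Adhesion and cytoskeleton genes were higher in 5iLA for 13 of 27 that passed (28 in the list), with none lower and a median of 0.94. The epithelial keratins KRT8 and KRT18 were at 10.5 RPKM in primed and 87.3 RPKM in 5iLA and at 24.1 and 150 RPKM. CDH1, E-cadherin, was at 38.2 and 91.4 RPKM, and its call was lost under both rescalings. The smooth muscle actin ACTA2 was at 0.921 and 21.2 RPKM, the actin-binding TAGLN at 15 and 81 RPKM, and fibronectin, FN1, at 8.03 and 53.1 RPKM. After median-ratio scaling 9 members were higher.

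Markers of other cells were examined beside these results. Of 16 fibroblast and feeder markers 10 passed, 3 higher and 2 lower, and the summed level was 59.9 RPKM in primed and 73.1 RPKM in 5iLA. The lower members were THY1, named above as a primed gene, and S100A4 (difference -1.21). THY1 alone made up 30.3 RPKM of the primed sum and 1.63 RPKM of the 5iLA sum, so the near-equal sums do not describe the other markers. COL1A2 was at 11.7 and 43.2 RPKM, COL3A1 at 0.466 and 4.44 RPKM and TWIST1 at 0.0937 and 5.58 RPKM. COL1A1 was at 3.08 and 3.04 RPKM, and DCN and FAP were under 1 RPKM in both libraries. Of 18 trophoblast markers 6 passed, 5 of them through 5iLA alone, and 5 were higher, and the summed level was 2.88 RPKM in primed and 38.8 RPKM in 5iLA. CGA, the alpha chain of the gonadotropins, was at 0.126 and 17.5 RPKM and made up most of what passed, with GATA3 at 0.0239 and 2.32 RPKM and VGLL1 listed at 0 and at 3.39 RPKM. CDX2 and ELF5 were at or below 0.164 RPKM in both libraries, and CGB was listed at 0 in 5iLA. Neural, mesoderm and endoderm markers passed for 5 of 15, 2 of 12 and 2 of 14 genes. The neural genes PAX6 and SOX1, the endoderm genes SOX17 and FOXA2 and the mesoderm genes EOMES, GSC and MESP1 were at most at 0.396 RPKM in both libraries. The primitive streak genes T, at 0.0296 RPKM in primed and 1.08 RPKM in 5iLA, and MIXL1, listed at 0 and at 0.701 RPKM, and the endoderm gene GATA6, at 0.0208 and 1.04 RPKM, were below the limit on level, with differences of 1.01, 0.77 and 0.997. With no limit on level, 3 of the 12 mesoderm markers, HAND1, T and WNT3, were at least 1 log2 unit higher. In these lists PAX3, HAND1 and CER1 were higher and KDR was lower. None of the 8-cell stage markers passed, and their summed level was 0.475 and 1.35 RPKM. The part of such cells in the adhesion, matrix and BMP differences was not tested. Of 6 transcripts linked to HERVH, an endogenous retrovirus active in human pluripotent cells, 2 passed and both were higher, among them SCGB3A2 at 8.12 and 23.7 RPKM. The HERVH-linked ESRG, a non-coding entry outside the comparison, went the other way, at 25.8 RPKM in primed and 16.2 RPKM in 5iLA.

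**Figure D3:**
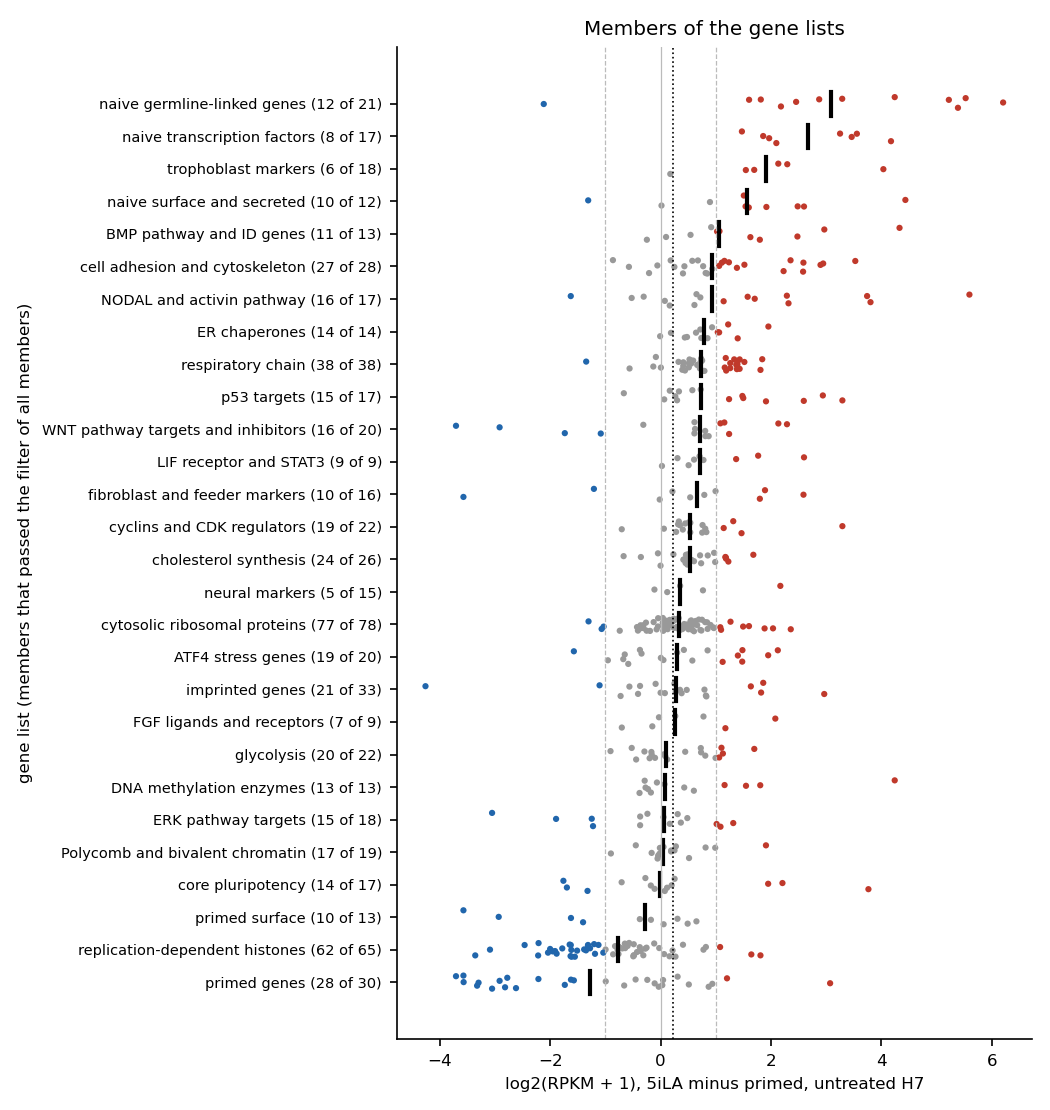
Difference of each member that passed, as log2(RPKM + 1) in 5iLA minus primed, for the lists with at least 5 members past the limit on level. Red and blue points are members at least 1 log2 unit higher or lower, black bars are list medians, the dotted line is the median of all entries (0.23) and vertical scatter has no meaning. The naive germline-linked list (median 3.08) and naive transcription factors (2.67) stand at the top and primed genes (-1.28) at the bottom.

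The shRNA libraries gave a second look at the same genes in libraries that the untreated pair does not share. Within the shRNA table, 5iLA H7 and t2iGo H1 were each set against primed H1 carrying the same shRNA, which gave 3 differences each. Both sets share the primed H1 libraries, line and medium cannot be told apart for 5iLA H7 against primed H1, and the tables were normalised separately. The primed H1 libraries stand apart, with histone genes at 0.0104% to 0.0208% of the summed RPKM against 0.902% to 3.61% in the other 8 libraries. List medians are therefore given relative to the median of all entries, which was -1.33 to -1.0004 for 5iLA and -0.90 to -0.71 for t2iGo. Values of single genes are plain differences, not relative to that median. Across the 10261 genes, the untreated difference had a Pearson's r of 0.475 to 0.523 with the 5iLA differences and 0.345 to 0.350 with the t2iGo differences, given as a description over genes that share libraries and depth. The relative median of the germline-linked genes that passed was 2.86 in the untreated pair, 6.92 to 7.28 for the 5iLA shRNA pairs and 0.75 to 1.01 for the t2iGo pairs. Single genes showed the same order, with NLRP7 at 8.13 to 9.14 for 5iLA and 0.57 to 1.15 for t2iGo. For the naive transcription factors the relative medians were 2.45, 3.88 to 4.47 and 0.77 to 1.06, and for the primed genes -1.51, -3.51 to -3.05 and -1.53 to -1.16. KLF17, near 0 in untreated 5iLA, differed by 0.76 to 1.14 in the 5iLA H7 libraries.

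Other groups did not keep their direction. The histone median was -0.996 relative to all entries in the untreated pair, but 4.71 to 6.37 for the 5iLA shRNA pairs and 4.39 to 5.70 for t2iGo. The adhesion list was 0.71 in the untreated pair and -1.08 to -0.03 in 5iLA H7. KRT8 was 2.95 log2 units higher in untreated 5iLA, against -2.67 to -1.13 in the shRNA 5iLA libraries, and TAGLN was 2.35 higher, against -4.45 to -3.87. GREM1 was 4.33 higher, against -1.46 to -0.70, and ZFP42 was 3.77 higher, against -1.15 to 0.03. These single-gene values are not relative to the median of all entries, which was -1.33 to -1.0004 in the 5iLA shRNA pairs. The ranges of KRT8, GREM1 and ZFP42 overlap those medians, so a reversal relative to all entries was not shown for them. The BMP list, at 0.84 in the untreated pair, was -0.43 to 0.27 for 5iLA and 1.07 to 1.34 for t2iGo. PRTG, the primed gene that was higher in untreated 5iLA, was at -3.12 to -0.27 in 5iLA H7. That range also overlaps the medians of all entries, so no reversal relative to them was shown. NODAL (3.65 to 3.92) and MDM2 (2.33 to 2.94) were higher there too. CGA was at 5.34 to 5.72 there, while the relative median of the trophoblast list was 1.56 to 2.59, against 1.69 in the untreated pair.

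**Figure D4:**
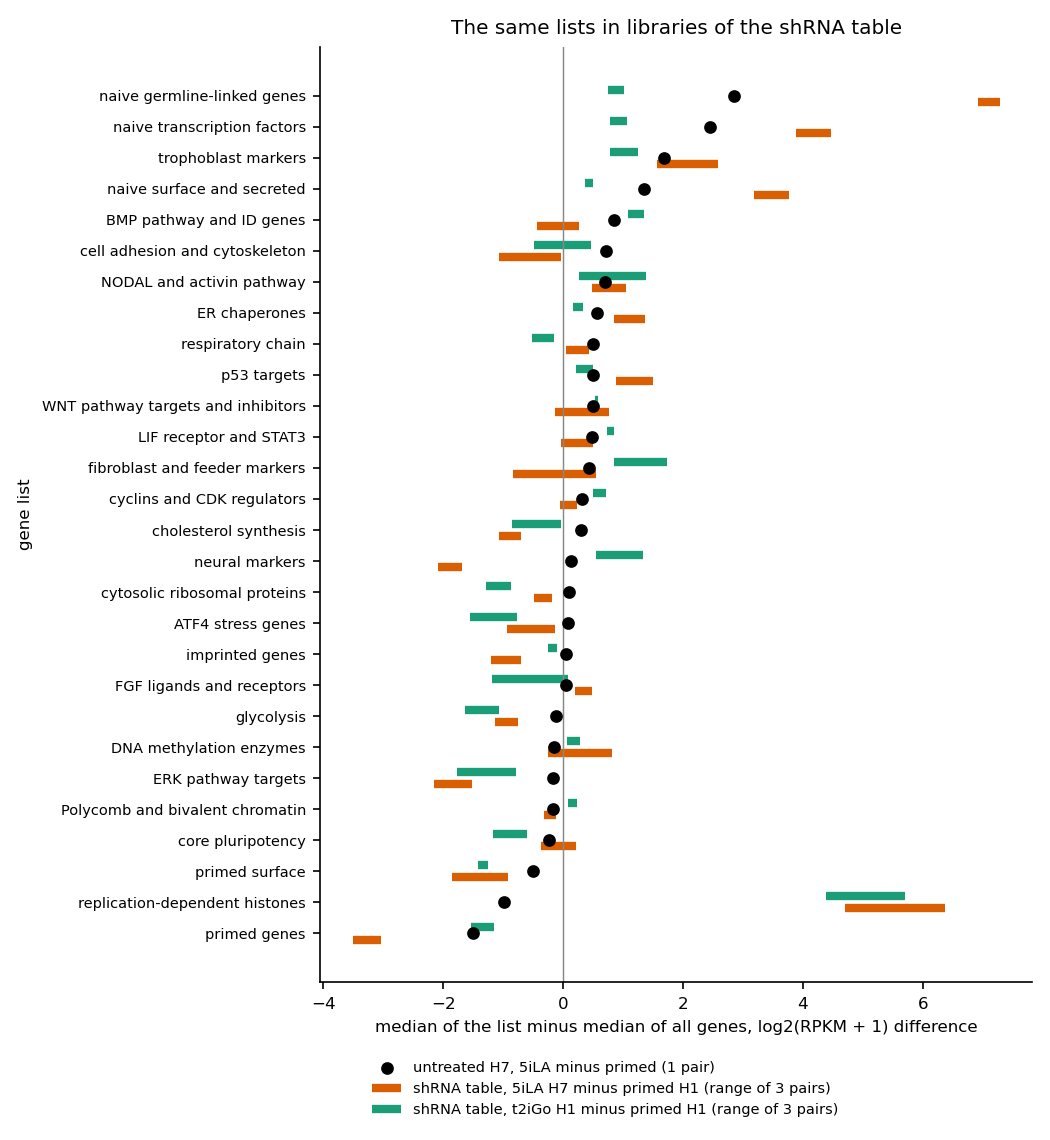
Median difference of each list minus the median of all entries, on the log2(RPKM + 1) scale, over the members that passed in the untreated pair. Black points are the untreated H7 pair (1 library each), and orange and green bars span the 3 shRNA pairs of 5iLA H7 and t2iGo H1 against primed H1. The naive lists lie to the right in all 3 sets, the primed genes to the left, and the histone list changes side, from -0.996 to between 4.39 and 6.37.

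By position, the share of entries past the threshold differed among chromosomes. On the X chromosome 16.3% of 386 entries were higher (exact 95% interval 12.8 to 20.4), against 10.3% of all entries, and the median difference there was 0.35. The share was 13.3% on chromosome 12 and lowest on chromosome 17, at 6.38% (interval 4.53 to 8.69), and on chromosome 19, at 6.87% (interval 5.05 to 9.09). Chromosome 6, which holds most histone genes, had the highest share of lower entries, 7.35% (interval 5.39 to 9.74). These intervals treat genes as independent, which neighbouring genes may not be. They also do not cover scaling: after median-ratio scaling 24 of the higher and lower shares fell outside their intervals and 22 stayed inside. In RefSeq order, 29 runs of at least 3 consecutive tested genes were higher and 6 were lower. KHDC1L, DPPA5, C6orf221 and DDX43 formed a run on chromosome 6, and GDF3, DPPA3 and NANOG a run on chromosome 12. Untested genes lie between run members, such as CLEC4C, listed at 0 in primed and at 0.0351 RPKM in 5iLA. Of the lower runs, PTPRZ1, AASS, FEZF1 and CADPS2 lay together on chromosome 7, and 4 others were made of histone genes.

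**Figure D5:**
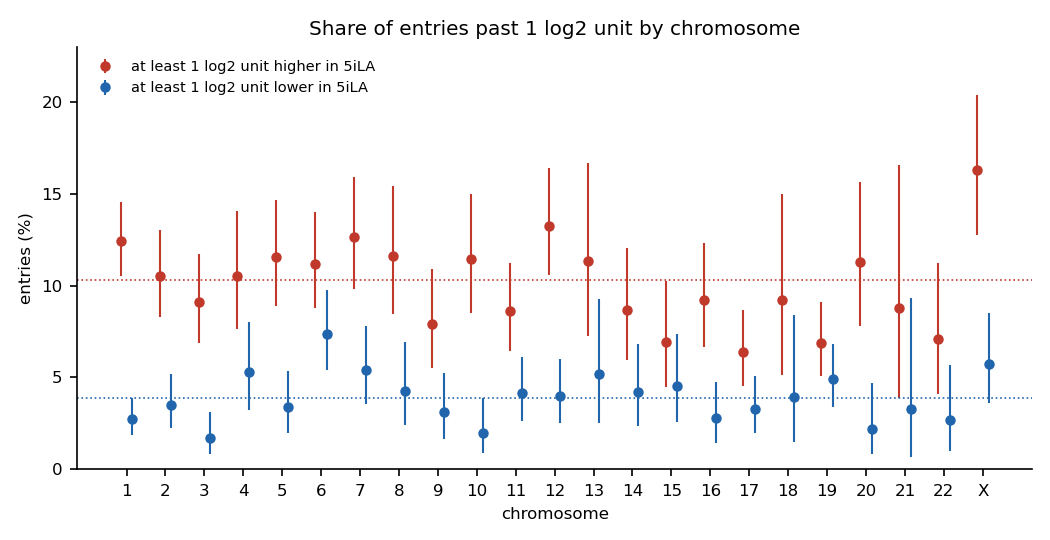
Percent of tested entries at least 1 log2 unit higher (red) or lower (blue) in untreated 5iLA H7, by chromosome. Bars are exact 95% binomial intervals over genes, and dotted lines mark the shares of all entries, 10.3% and 3.88%. No rescaling was applied. The X chromosome stands highest among the red points at 16.3%, and chromosome 6 among the blue points at 7.35%.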

How the data were processed

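RNA-seq of human embryonic stem cells was analysed from the RPKM values that the authors deposited, in separate tables for the untreated pair and for the 9 shRNA libraries, and no difference was taken across tables. Per the submitters' processing notes, the tools were TopHat2 2.3.0 and Cufflinks 1.2.1 and the build was hg19. What each tool did, its settings and the use of strand in counting were not given in the sources used here, so reads of overlapping and antisense genes cannot be told apart. Groups follow the labels, with 1 library per group.

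NM entries with a mean of at least 1 RPKM over both untreated libraries were compared as log2(RPKM + 1), 5iLA minus primed, which understates the change of low genes. A gene was called at 1 log2 unit, with no test. Read totals were estimated from the RPKM step of a single read (tolerance 0.05 reads), with GENCODE release 29 transcript lengths (GRCh38) matched by RefSeq identifier for 94.1% of entries, so depths, reads and intervals are estimates. Folds are given above 3 reads in both libraries. Promoters and gene order are from RefSeq GRCh38.p14. No coordinate was carried between builds.

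The text names CCNE1, CCNE2, the 15 largest differences in each direction among entries that reached 5 RPKM or more in 1 of the libraries, and members of 32 gene lists (669 symbols, 662 with an entry), taken by role. Neighbours, gene families and runs outside this rule were named after their values were seen. Some list members that the rule allows are not reported here. The members and lists were chosen with earlier results of these data known, so no list was tested. Alternatives were a pseudocount of 0.1, median-ratio scaling, quantile normalization, other limits on low values and all entries of the table. The steps were tested on simulated data. Python 3.11.15, pandas 2.3.3, NumPy 2.4.6, SciPy 1.17.1 and matplotlib 3.10.9 were used.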

Additional observations from a re-analysis of the deposited data

Results flagged for a closer look

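Entries with RefSeq NR identifiers, which are non-coding and outside the comparison, took 34.7% of the summed RPKM in untreated 5iLA H7 and 13.7% in untreated primed H7. The signal is marked because it lies in entries that the comparison does not use and stands above the primed level. NR entries under 300 nt made up 29.6% and 6.33%. Short RNAs are poorly measured by RPKM and overlap host genes. The summed RPKM of all entries was 234788 in 5iLA and 143947 in primed, and the part of library preparation in this difference was not tested.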

How the results depend on the processing

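Among the called list members and named genes, none changed sign under the alternatives checked. This was to a large degree fixed in advance and is no sign of firmness. A call needs a difference of 1 log2 unit, and the rescalings moved the median by -0.215 and -0.232. A change of pseudocount or of the limit on level cannot change a sign. With a pseudocount of 0.1, 681 entries were lower and the median was 0.27 (1528 higher). Median-ratio scaling gave 702 higher, 630 lower and a median of 0.011, and quantile normalization gave 676, 667 and -0.0062. With no limit on low values the median was 0.035. With a mean of at least 5 RPKM, 614 entries were higher, 177 were lower and the median was 0.29, over 5381 entries, so fewer were examined. Over all entries of the table the counts were 1215 and 434. Of 218 named genes and list members past the threshold, 183 were past it under both rescalings, and the 35 lost were all on the higher side. Both rescalings lowered the median, which works against higher calls and not against lower ones. No paired analysis was possible because each group had 1 library and no replicate numbers are shared. In the library where the gene was high, 8 higher entries had under 50 estimated reads in 5iLA and 16 lower entries had under 50 in primed. With 1 library a side, the difference between media cannot be told apart from that between these libraries.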

Other observations

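Gene families outside the lists, named after their values were seen, were also higher in untreated 5iLA. Over all entries that passed 10.3% were higher, and the family counts were not repeated after rescaling. All 7 metallothioneins that passed, of 11 entries, were higher, by 2.07 to 3.27 log2 units, and they stand in 1 run on chromosome 16. MT1X, a metal-binding protein, was at 5.15 RPKM in primed and 29 RPKM in 5iLA, and MT2A at 1.28 and 8.58 RPKM. These copies are near-identical, so the split of reads among them is uncertain. Of 19 subunits of the vacuolar proton pump that passed, of 22, 9 were higher and none lower, with a median of 0.97. Among the higher ones ATP6V1A (1.07) and ATP6V0C (1.17) were near the threshold, and ATP6V1B1 was listed at 0 in primed. ATP6V0E1 was at 25.9 and 113 RPKM, and ATP6V0D2 was listed at 0 in primed and at 5.16 RPKM in 5iLA. Of 8 annexins that passed, of 12, 7 were higher, but ANXA7, ANXA4, ANXA6 and ANXA11 were near the threshold, at 1.06 to 1.21. ANXA2 was at 5.65 and 106 RPKM and ANXA3 at 9.20 and 51.6 RPKM.

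Among entries listed at 0 in primed, BRDT, a bromodomain protein of the testis, was at 10.8 RPKM in 5iLA, NPPB, the natriuretic peptide B gene, at 12.2 RPKM and the calcium-binding S100P at 7.90 RPKM. In the shRNA table BRDT was 4.69 to 5.53 log2 units higher in 5iLA H7 than in primed H1, and NPPB differed by -0.11 to 0.59. Both are plain differences, not relative to the median of all entries. In the other direction, the read-through entry RPL36A-HNRNPH2 was at 6.30 RPKM in primed and listed at 0 in 5iLA, and its reads overlap those of its parent genes. Of 504 NR entries of at least 300 nt and 1 RPKM, 65 were higher and 21 lower, beside 10.3% higher and 3.88% lower among the tested NM entries. MEG3, an imprinted non-coding RNA, was at 0.282 RPKM in primed and 44.8 RPKM in 5iLA. H19, another, was listed at 0 and at 6.68 RPKM, and ESRG, a HERVH-linked transcript, was at 25.8 and 16.2 RPKM.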
